A study of Mus musculus with 4 samples.

Results

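Genes of glutamate and GABA receptors were followed in brain and in the mandible and maxilla of newborn FoxO6-/- and WT mice. A gene was included when its symbol began with Gria, Grin, Grik, Grm, Grid, Gabra, Gabrb, Gabrg, Gabrr or Gabbr followed by a digit, or was Gabrd, Gabre, Gabrp or Gabrq, and when it had a probe set annotated to it alone. This rule found 39 of the 18193 genes on the arrays, measured by 81 probe sets. One of them, Grid2ip, is named for a scaffold protein that binds a delta receptor, so that 38 are receptor subunits. Some other genes of these families were not analysed here.

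The animals were at postnatal day 0 by the labels, while the methods call the mandible and maxilla donors embryos. Expression was measured on Affymetrix arrays in 4 groups: FoxO6-/- mandible and maxilla, WT mandible and maxilla, FoxO6-/- brain and WT brain, with 1 array per group. In the mutant the FoxO6 coding region is replaced by lacZ and neomycin cassettes on a C57BL/6 background. The methods state pools of 4 animals, for mandible and maxilla and once with no tissue named, and count null and heterozygous animals among the mutants, so an array labelled FoxO6-/- may hold RNA of heterozygotes. Foxo6 itself has no probe set named here, so the genotype was not checked against the deleted gene.

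Glutamate is the main excitatory transmitter of the brain and GABA the main inhibitory one. AMPA, NMDA and kainate receptors are glutamate-gated ion channels built from several subunits, metabotropic glutamate receptors act through G proteins, GABAA receptors are chloride channels, and GABAB receptors are coupled to G proteins. Subunits change with age: NMDA receptors of the newborn forebrain are rich in GluN2B (Grin2b), and Grin2a, Grin2c, Gabra6 and Gabrd are known for rising after birth.

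The value of a probe set is its MAS5 signal, a linear intensity that the authors scaled to the same trimmed mean of 500.0 on all 4 arrays. The brightest probe set, by its mean over the arrays, stood for a gene, and a signal was called low when it was below a floor of 101, the median of all signals. The labels were set against marker genes. Of 15 pan-neuronal markers 14 were called higher in brain, with a summed signal of 75584 to 95446 in brain and 4890 to 7694 in mandible and maxilla. The brain arrays also carried high signals of other tissues: skeletal muscle markers summed to 45712 and 53094 in brain against 101254 and 107784 in mandible and maxilla, and cartilage markers to 20840 and 35858 in brain against 18757 and 30246. The brain samples therefore did not show neural markers alone, and the part of other tissue in the differences below was not tested. In these bulk samples fewer cells of a type and less RNA per cell cannot be told apart. The ratio of 3' to 5' signal of Actb, which rises as RNA is less intact or less fully copied, was between 2.21 and 2.23 on 3 arrays and 3.37 on that of FoxO6-/- mandible and maxilla.

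Most receptor genes were measured in brain and few in mandible and maxilla. Of the 39 genes, 24 had a mean signal at or above the floor in brain, 7 in mandible and maxilla and 6 in both, while 14 were below it in both tissues and 13 of these on every array. Probe sets differ in brightness, so signals are compared for 1 gene between arrays and not between genes.

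**Figure D1:**
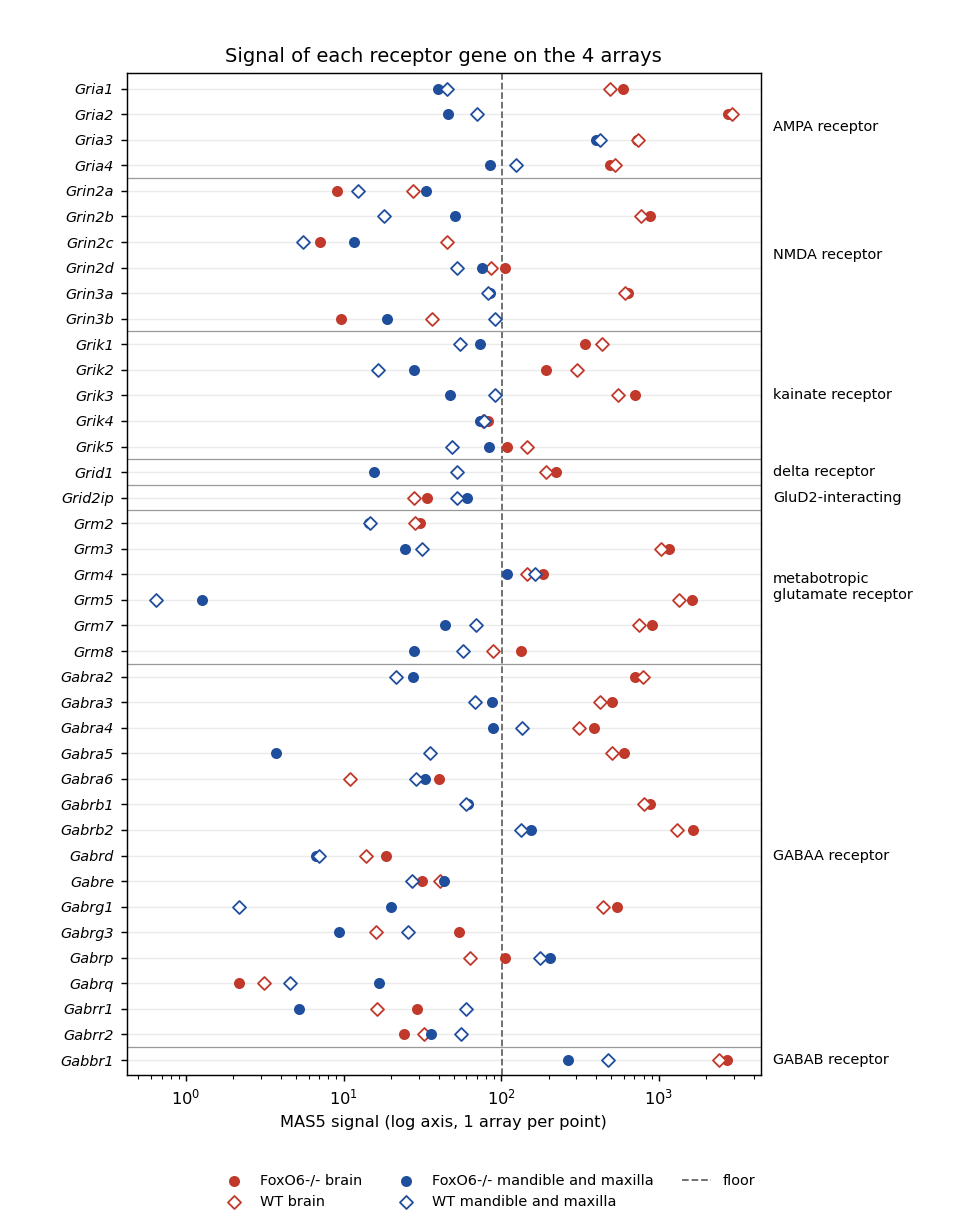
MAS5 signal (horizontal, log axis) of the brightest probe set of each of the 39 genes (rows, grouped by receptor family) on the 4 arrays, with the floor of 101 as a dashed line. Points are single arrays: red brain, blue mandible and maxilla, filled circles FoxO6-/- and open diamonds WT. In brain 24 genes have a mean at or above the floor, and in mandible and maxilla 7 do.

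The first comparison asked which receptor genes differ between brain and mandible and maxilla. The log2 signals were fitted by limma with a term for tissue and one for genotype, so that the FoxO6-/- and WT arrays serve as the 2 replicates of a tissue and 1 residual degree of freedom is left. Of 12569 genes with a mean over the 4 arrays at or above the floor, 8.73% were called higher in brain and 6.48% higher in mandible and maxilla at an adjusted p under 0.05, together 15.2%. Of the receptor genes 23 entered the fit, of which 18 were called higher in brain, 1, Gabrp, higher in mandible and maxilla, and 4 were not called. For 16 of the 23 the mean in mandible and maxilla was below the floor, so they entered through brain and had to differ: 15 of these 16 were called. Their fitted differences rest on mandible and maxilla signals under the floor and are no measure of the fold. Set against the floor of 101 in place of those signals, brain was higher by at least 2.39-fold (Grik2) to 28.0-fold (Gria2) in these 15 genes. Such bounds, here and below, hold for the brightest probe set and not for the dimmer ones of a gene. A dimmer Gria2 probe set had only 320 and 619 in FoxO6-/- and WT brain, against 2741 and 2895 on the brightest. Among the 7 with signal at or above the floor in mandible and maxilla, Gabbr1, Gabrb2 and Gria4 were called higher in brain and Gabrp lower, and Gria3, Gabra4 and Grm4 were not called. In mandible and maxilla only Gabbr1, Gria3 and Gabrp had a further probe set with a mean at or above the floor. All other probe sets of Gria4, Gabra4 and Gabrb2 were under it there, and Grm4 has 1 probe set. Gabrp had a brain mean under the floor and so entered through mandible and maxilla. The median difference of the 23 was 3.35 on the log2 scale, against -0.05 over all genes tested. It rests largely on the 16 genes that had to differ and is no measure of the fold. In the other 7 the differences ran from -1.21 (Gabrp) to 3.35 (Gabrb2). In 12 genes a further 17 probe sets had a mean at or above the floor, and all 17 lay on the same side of 0 as the brightest one.

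**Figure D2:**
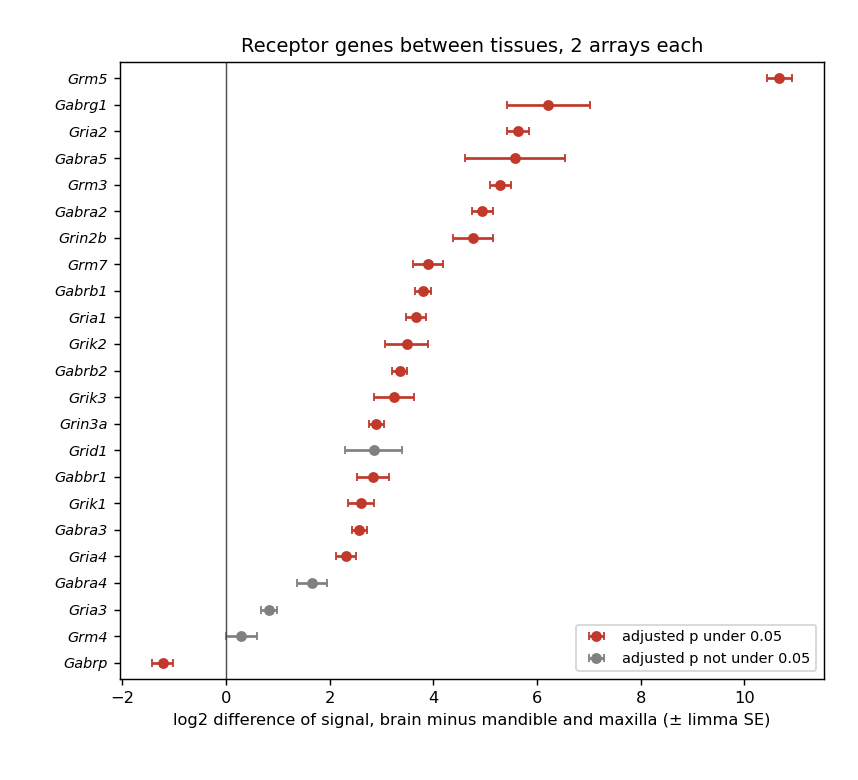
Difference in log2 signal, brain minus mandible and maxilla (horizontal, log2 units), for the 23 receptor genes in the fit (rows). Points are limma estimates from 2 arrays per tissue, bars are ± 1 SE, and red marks an adjusted p under 0.05. Of these genes 18 lie to the right of 0 in red and only Gabrp lies to the left.

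AMPA receptors carry fast excitatory transmission, and all 4 of their genes were measured. Gria2, which encodes the GluA2 subunit that limits calcium entry, had 2741 and 2895 in FoxO6-/- and WT brain and 45.7 and 70.6 in FoxO6-/- and WT mandible and maxilla. Both brain arrays were far above both mandible and maxilla arrays, by 5.63 ± 0.21 on the log2 scale (limma SE, 2 arrays per tissue; adjusted p = 0.00857). Since both low signals are under the floor, the fold is bounded by it: brain was at least 28.0-fold above 101. Gria1 had 593 and 489.9 in FoxO6-/- and WT brain and 39.8 and 45.2 in FoxO6-/- and WT mandible and maxilla (difference 3.67 ± 0.19, adjusted p = 0.00902; at least 5.36-fold), and Gria4 differed by 2.32 ± 0.19 (adjusted p = 0.0138). Gria3 was the AMPA gene with clear signal in the jaw tissue. It had 731 and 735 in FoxO6-/- and WT brain and 399 and 424 in FoxO6-/- and WT mandible and maxilla. The tissues did not overlap, but the difference of 0.83 ± 0.15 missed the limit (adjusted p = 0.0504), and it was called in 9 of the 16 other settings. A further Gria3 probe set gave 373 and 359 in brain and 205 and 200.2 in mandible and maxilla in the same order of genotypes, also higher in brain.

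Of 6 NMDA receptor genes 2 had brain signal at or above the floor, and both were called. Grin2b, the newborn-type GluN2 subunit, had 879 and 773 in FoxO6-/- and WT brain and 51.1 and 18.0 in FoxO6-/- and WT mandible and maxilla (difference 4.76 ± 0.39, adjusted p = 0.0137), at least 8.19-fold higher in brain. Grin3a, a glycine-binding subunit that lowers calcium entry, had 638 and 612 in brain against 84.8 and 82.1 in mandible and maxilla in the same order (2.90 ± 0.15, adjusted p = 0.00859), at least 6.21-fold higher. Both genes were low on both mandible and maxilla arrays. Grin2a, Grin2c and Grin3b were below the floor on all 4 arrays. Grin2d reached 106 on the FoxO6-/- brain array and between 52.5 and 85.5 on the others.

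Kainate receptors tune release and excitability. Grik1, Grik2 and Grik3, which can form channels alone, were called higher in brain with differences of 2.61 ± 0.26, 3.49 ± 0.41 and 3.25 ± 0.39 (adjusted p = 0.0188, 0.0250 and 0.0253). Their mandible and maxilla signals, between 16.5 and 91.3, were all under the floor, against which brain was at least 3.82-fold, 2.39-fold and 6.19-fold higher. The companion subunit Grik5 had 108 and 146 in FoxO6-/- and WT brain and 83.5 and 48.9 in FoxO6-/- and WT mandible and maxilla. Both brain signals were the higher ones, but its mean over the 4 arrays was under the floor and it was not tested, as was Grik4, with signals of 72.9 to 82.6. Grid1, a delta receptor gene that organizes synapses with cerebellins, had 221.8 and 194 in brain and 15.6 and 52.6 in mandible and maxilla, in the same order. These signals did not overlap between tissues, but the difference of 2.85 ± 0.55 was not called (adjusted p = 0.0583). It was not called either without the FoxO6-/- or the WT brain array (adjusted p = 0.119 and 0.103). It passed without one of the mandible and maxilla arrays (0.00819 and 0.00124), where a lone low array is assumed to vary like the 2 brain arrays. Grid2ip was between 27.9 and 61.0 on all arrays.

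Among 6 metabotropic genes 3 were called higher in brain. Grm5, which signals through phospholipase C, had 1611 and 1332 in FoxO6-/- and WT brain and 1.26 and 0.642 in FoxO6-/- and WT mandible and maxilla. It had the largest fitted difference of the 23 genes, 10.67 ± 0.24 (adjusted p = 0.00611), but signals near 1 are far below the floor, and against the floor the brain level was at least 14.5-fold higher. The other Grm5 probe set was likewise at 1003 and 824 in brain and at 14.7 and 3.80 in mandible and maxilla. Grm3, which lowers cyclic AMP and is known in astrocytes as well as neurons, had 1150.5 and 1038 in FoxO6-/- and WT brain and 24.5 and 31.6 in FoxO6-/- and WT mandible and maxilla (5.30 ± 0.20, adjusted p = 0.00857), at least 10.9-fold higher in brain. Grm7, a presynaptic receptor, differed by 3.90 ± 0.29 (adjusted p = 0.0122), with mandible and maxilla signals of 44.3 and 69.3 and a bound of at least 8.21-fold. Grm4, another presynaptic receptor, was measured in both tissues at similar signals: 185 and 145 in FoxO6-/- and WT brain and 108 and 164 in FoxO6-/- and WT mandible and maxilla. The tissues overlapped, and the difference of 0.30 ± 0.30 did not pass (adjusted p = 0.536). Grm8 reached the floor on the FoxO6-/- brain array alone, at 133, and Grm2 on no array.

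Of 15 GABAA receptor genes 8 entered the fit and 6 were called higher in brain. Gabrb2, a beta subunit that forms the GABA site with an alpha subunit, had 1650 and 1302 in FoxO6-/- and WT brain and 154 and 134 in FoxO6-/- and WT mandible and maxilla. On this probe set it was above the floor on all 4 arrays and 10.2-fold higher in brain (log2 difference 3.35 ± 0.15, adjusted p = 0.00857). Its other probe sets were under the floor in mandible and maxilla. Gabrb1 differed by 3.80 ± 0.15, and the alpha subunit genes Gabra2 and Gabra3 by 4.95 ± 0.20 and 2.58 ± 0.15 (adjusted p = 0.00857, 0.00857 and 0.00937). All 3 were under the floor in mandible and maxilla, between 21.4 and 86.9, and against the floor brain was at least 8.36-fold, 7.45-fold and 4.57-fold higher. Gabra5, whose subunit mediates tonic inhibition, had 601 and 504 in FoxO6-/- and WT brain and 3.74 and 35.4 in FoxO6-/- and WT mandible and maxilla. Gabrg1, a gamma subunit that takes part in the benzodiazepine site, had 546 and 441 in brain and 20.0 and 2.17 in mandible and maxilla in the same order. In both genes the mandible and maxilla signals were low and far apart, the differences were 5.58 ± 0.96 and 6.22 ± 0.80 (adjusted p = 0.0481 and 0.0283), and both calls were lost when either brain array was left out (adjusted p = 0.101 and 0.0905 for Gabra5 and 0.0813 and 0.0721 for Gabrg1, without FoxO6-/- and WT brain). Against the floor brain was at least 5.47-fold higher for Gabra5 and 4.87-fold for Gabrg1. Gabra4 had 385 and 310.3 in brain and 88.6 and 136 in mandible and maxilla, with no overlap. Its difference of 1.66 ± 0.29 lay at the limit (adjusted p = 0.0500147) and was called in 12 of the 15 other settings.

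Gabrp, the pi subunit known from uterus, lung and glands, was the receptor gene with more signal in the jaw tissue. It had 203 and 176 in FoxO6-/- and WT mandible and maxilla and 105 and 63.2 in FoxO6-/- and WT brain. Both mandible and maxilla arrays were higher, with a difference of -1.21 ± 0.21 for brain minus mandible and maxilla (adjusted p = 0.0470). The brain mean of 84.3 was under the floor, so Gabrp entered through mandible and maxilla and this difference is no measure of the fold. With low signals raised to the floor the limma difference was -0.88 (adjusted p = 0.0243). The other probe set had the same order, with 150.2 and 130.4 against 80.8 and 56.5. The call was lost without the FoxO6-/- mandible and maxilla array (adjusted p = 0.132), the WT mandible and maxilla array (0.0831) or the WT brain array (0.0946), and with a variance trend (0.0759). All 5 markers of oral epithelium and skin were called higher in mandible and maxilla, with a median difference of -1.70, and had higher signals in FoxO6-/- in both tissues. Gabrp had the same order, but with its low brain mean it was left out of the genotype comparison in brain. Of 5 respiratory and glandular markers in the fit 0 were called. Without Bpifa1, the brightest by far, the other 7 of that list summed to 1104 and 1469 in FoxO6-/- and WT mandible and maxilla and to 1296 and 1275 in FoxO6-/- and WT brain. The part of these tissues in the Gabrp signal was not tested. The rho subunit genes Gabrr1 and Gabrr2, known from the retina, and Gabra6, Gabrd, Gabre, Gabrg3 and Gabrq were below the floor on all arrays.

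Gabbr1, which encodes the GABA-binding subunit of the GABAB receptor, had 2693 and 2411 in FoxO6-/- and WT brain and 266 and 475 in FoxO6-/- and WT mandible and maxilla. All 4 signals were above the floor and brain was 7.17-fold higher (2.84 ± 0.31, adjusted p = 0.0214). A second probe set gave 865 and 727 in brain and 312 and 428 in mandible and maxilla, the same order with a smaller gap.

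The promoter windows of a gene from each side of this comparison are shown for their sequence. RefSeq windows of assembly GRCm38.p6, running from 250 bases before to 50 bases after a transcript start, were found for 29 of the 39 genes, with 37 windows in all. The windows of Gria2, called higher in brain, and of Gabrp, called higher in mandible and maxilla, are given 5′ to 3′ with each CG dinucleotide in capitals.
Gria2 (chr3:80802786-80803085, minus strand): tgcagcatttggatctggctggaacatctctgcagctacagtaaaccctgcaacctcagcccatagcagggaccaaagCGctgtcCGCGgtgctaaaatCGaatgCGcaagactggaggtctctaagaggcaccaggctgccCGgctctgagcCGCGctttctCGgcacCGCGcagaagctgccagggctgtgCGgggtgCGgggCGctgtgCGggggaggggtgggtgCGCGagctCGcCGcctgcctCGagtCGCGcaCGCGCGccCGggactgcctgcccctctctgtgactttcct
Gabrp (chr11:33578908-33579207, minus strand): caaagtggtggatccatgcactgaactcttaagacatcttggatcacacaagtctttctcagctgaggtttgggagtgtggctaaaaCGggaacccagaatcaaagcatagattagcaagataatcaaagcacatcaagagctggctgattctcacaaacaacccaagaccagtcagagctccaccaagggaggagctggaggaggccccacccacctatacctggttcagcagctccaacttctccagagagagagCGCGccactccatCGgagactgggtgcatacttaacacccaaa

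The Gria2 window holds 26 CG dinucleotides, more than 83.1% of 32851 windows in the table, and the Gabrp window holds 4, more than 31.4%. High and low counts were found among genes called higher in brain too: over 18 windows of 13 such genes the median was 12, as over all 37 member windows, against 7 over all windows. Grik3 had 50, Gabrg1 3 and both Gabra3 windows 0. The letters TATAAA, searched on both strands, stood in 4 member windows, of Gabra3, Gabrb2 and Grin3b, and in 13.6% of all windows. These counts describe the letters of the windows and were not set against binding.

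Many GABAA genes lie in clusters, and in 3 of the clusters a gene with signal in brain lay beside one below the floor. On chromosome 5 the order is Gabrg1, Gabra2, Gabra4 and Gabrb1, and all 4 were at or above the floor in brain, 3 of them called. On chromosome 11 Gabrb2 was called higher in brain, whereas its neighbour Gabra6 was between 10.9 and 40.1. On chromosome 7 Gabra5 had signal in brain and the adjacent Gabrg3 stayed between 9.34 and 54.3. On the X chromosome Gabra3 was at 503 and 421 in FoxO6-/- and WT brain, while Gabre and Gabrq on either side of it were below the floor.

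The second question was whether receptor genes differ between FoxO6-/- and WT brain. With 1 array per genotype there is no test, and genes at least 2-fold apart were counted. Of 12327 genes with a mean brain signal at or above the floor, 2.03% were at least 2-fold lower and 1.13% at least 2-fold higher in FoxO6-/-. None of the 24 receptor genes differed by 2-fold, with log2 ratios from -0.66 to 0.60. The signal was higher on the FoxO6-/- array for 17 and lower for 7, with a median log2 ratio of 0.19, against 0.05 over all genes, of which 57.3% were higher. All 15 pan-neuronal markers were higher on the same array, with a median of 0.36; their part in the receptor values was not tested.

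By family the direction was mixed. All 5 metabotropic genes measured in brain had a higher signal in FoxO6-/-, from 0.15 for Grm3 to 0.60 for Grm8, whose WT signal of 88.2 was below the floor. Of 7 GABAA genes 6 had a higher signal, with Gabrb2 at 0.34, 0.35, 0.33 and 0.29 from its 4 probe sets at or above the floor. Gabbr1 had 0.16, and 0.25 and 0.47 from others. Of 4 AMPA genes 3 were slightly lower on the brightest probe set, between -0.01 and -0.10, and Gria1 had 0.28. Another probe set of Gria4 gave 0.46 and another of Gria3 gave 0.06, on the other side of 0. A dimmer Gria2 probe set gave 320.1 against 619, a log2 ratio of -0.95, while the brighter ones gave -0.08 and 0.03. The lowest ratios were those of kainate subunits. Grik2 had 191 in FoxO6-/- and 302 in WT brain, a log2 ratio of -0.66. Grik5 had -0.43 and Grik1, with 338 against 437, had -0.37. Grik3 had the opposite sign, with 710.2 against 548 and 0.37. None of these kainate genes has a further probe set above the floor. Over the 19 other probe sets that were, 15 lay on the same side of 0 as the brightest one, and over 4927 genes of the whole array the difference between the 2 brightest probe sets in brain had an SD of 0.39.

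**Figure D3:**
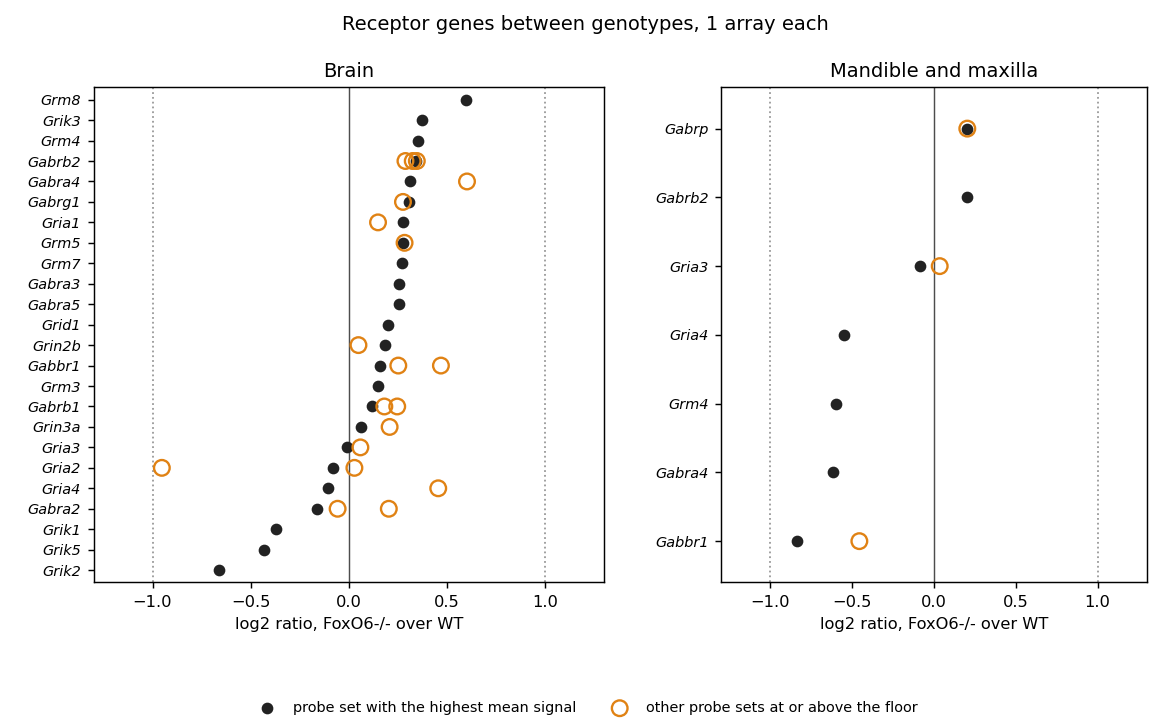
Log2 ratio of signal, FoxO6-/- over WT (horizontal), in brain (24 genes) and in mandible and maxilla (7 genes), with 1 array per genotype and so no error bars. Black points are the brightest probe set of a gene, orange rings its other probe sets at or above the floor, and dotted lines mark 2-fold. No black point passes a dotted line, and in brain Grik2, Grik5 and Grik1 lie lowest.

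In mandible and maxilla the same comparison covered 7 receptor genes. Of 12186 genes at or above the floor there, 1.69% were at least 2-fold lower and 0.591% at least 2-fold higher in FoxO6-/-. None of the 7 differed by 2-fold, and 5 had a lower and 2 a higher signal in FoxO6-/-, where 48.7% of all genes were higher. The median log2 ratio of the 7 was -0.55, against -0.01 over all genes. Gabbr1 had the largest difference, 266 in FoxO6-/- against 475 in WT, a log2 ratio of -0.84 and -0.46 from a further probe set. Gabra4 had 88.6 against 136 and -0.62, Grm4 108 against 164 and -0.60, and Gria4 84.6 against 124 and -0.55. In Gabra4 and Gria4 the FoxO6-/- signal was itself under the floor. Gria3, at 399 against 424, had -0.09 and 0.04 from its probe sets. Gabrp had 0.20 from both probe sets and Gabrb2 0.20. Several marker lists were lower on the FoxO6-/- array and others were not. All 12 of the 15 pan-neuronal markers that were at or above the floor were lower, 5 of them by 2-fold, with a median of -0.90. Olfactory neuron markers had a median of -1.28, with 5 of 6 lower, and Schwann cell markers 0.03, with 3 of 6 lower. Outside neurons, medians were -0.74 for cartilage (5 of 5 lower), -0.73 for respiratory and glandular epithelium (6 of 6) and -0.65 for astrocytes and radial glia (5 of 7). Bone had 0.23, with 4 of 5 higher, and oral epithelium and skin 0.46, with 5 of 5 higher. The share of such cells in the receptor values was not tested, nor was that of the higher 3' to 5' ratio of this array. In mandible and maxilla the difference between the 2 brightest probe sets of a gene had an SD of 0.42 over 4927 genes, and 61.0% had both on the same side of 0.

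Over both tissues together limma called 0 of 12569 genes (0.0%) for genotype, while 588 were under 0.05 before adjustment. Among the 23 receptor genes 0 were called and 0 were under that limit before adjustment. Their smallest adjusted p was 0.902. Grm5 had the smallest unadjusted p, 0.0701, with a log2 difference of 0.62 ± 0.24 that rests on mandible and maxilla signals near 1. The fit takes the 2 tissues as replicates, so a change that differs between them counts as error.

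Partners of these receptors at the synapse were taken from a list of 74 genes, of which 67 have a probe set. In the comparison of tissues 32 of 57 were called higher in brain and 0 in mandible and maxilla, with a median difference of 1.78, where 8.73% of all genes were called higher in brain. Of the 57 genes, 25 had a mean under the floor in mandible and maxilla and entered through brain, and 21 of them were called. Among the other 32, 11 were called and the median was 0.72. Gad1, which makes GABA, had 3366 and 3147 in FoxO6-/- and WT brain and 15.0 and 33.3 in FoxO6-/- and WT mandible and maxilla, and both brain arrays were far above the others (7.18 ± 0.37, adjusted p = 0.00874; at least 32.3-fold against the floor). Gad2, the second gene of GABA synthesis, was at least 5.59-fold higher in brain (adjusted p = 0.0293). For these genes and the next the fitted difference rests on low signals, so that it sets no order among them. The vesicular GABA transporter Slc32a1 had 724 and 611 in FoxO6-/- and WT brain and 11.7 and 1.43 in FoxO6-/- and WT mandible and maxilla, at least 6.603-fold higher in brain (adjusted p = 0.0204). The glycine receptor gene Glra2 had 1169 and 1107 in brain and 16.5 and 11.5 in mandible and maxilla, at least 11.3-fold higher (adjusted p = 0.00779). Cacng2, the AMPA receptor auxiliary subunit stargazin, had 579.7 and 705 in brain and 20.1 and 7.06 in mandible and maxilla, at least 6.35-fold higher (adjusted p = 0.0156). Slc17a6, the vesicular glutamate transporter of brainstem and thalamus, had 2347 and 1895 in brain and 46.8 and 165 in mandible and maxilla, whereas Slc17a7, the cortical one that rises after birth, was between 26.6 and 37.8 on all arrays.

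The chloride transporters that set the direction of GABAA currents differed from each other. Slc12a5 (KCC2), which lowers chloride in neurons, had 3182 and 2591 in FoxO6-/- and WT brain and 84.2 and 104 in FoxO6-/- and WT mandible and maxilla (4.94 ± 0.22, adjusted p = 0.00857). Its mandible and maxilla mean was under the floor, so it entered through brain, which was at least 28.5-fold higher against the floor. Slc12a2 (NKCC1), which raises chloride and also serves secretion in glands, was between 3234 and 4096 on all 4 arrays (-0.18 ± 0.15, adjusted p = 0.471). Camk2a, a synaptic kinase, had the lowest difference, -0.75 ± 0.16 (adjusted p = 0.0738), followed by Dlg1 with -0.44, Slc12a2 and Kctd12b with -0.14, and none of these was called.

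**Figure D4:**
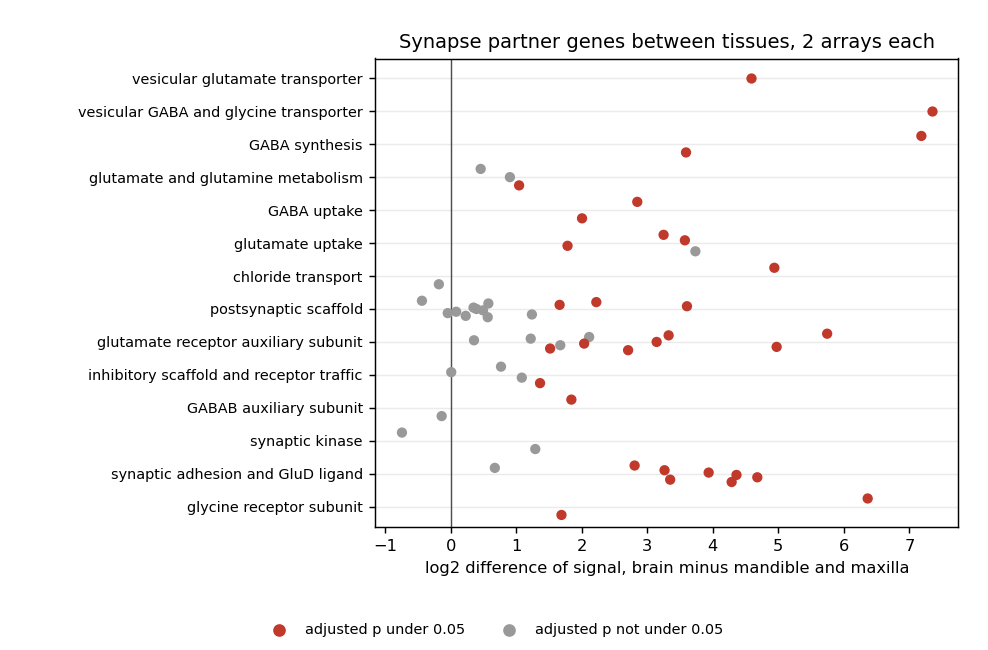
Difference in log2 signal, brain minus mandible and maxilla (horizontal, log2 units), of the 57 synapse partner genes in the fit, with 1 row per role and 1 point per gene, spread within its row for legibility. Points are limma estimates from 2 arrays per tissue, and red marks an adjusted p under 0.05, which 32 genes pass, all to the right of 0.

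Between genotypes the partners were described in the same way as the receptors. In brain 42 of 59 had a higher signal in FoxO6-/-, with a median log2 ratio of 0.15 and 0 at 2-fold, beside 57.3% of all genes higher. Of all genes 1.13% were 2-fold or more higher there, and 2.03% were lower by that much. The 15 pan-neuronal markers were all higher on this array, and their part was not tested. The highest were Cnih3, Neto1, Dlg4 and Glra3, from 0.64 to 0.66, and the lowest Pick1 with -0.35, Kctd12b with -0.34, Cacng2 with -0.28 and Slc6a13 with -0.27. In WT brain Cnih3 was at 94.4, under the floor, and Glra3 at 121, near it. Beside 48.7% of all genes higher in FoxO6-/- mandible and maxilla, 17 of 32 partners were higher and 15 lower there, with a median of 0.02. Of these, 2 were at least 2-fold lower: Slc17a6, with 46.8 against 165 and a log2 ratio of -1.81, and Cacng4, an AMPA receptor auxiliary subunit, with 63.4 against 188 and -1.57. Among all genes 1.69% were at least 2-fold lower. Both FoxO6-/- signals were under the floor, and the 12 pan-neuronal markers measured here were lower on the same array, 5 by 2-fold, whose part was not tested. The AMPA receptor scaffold Grip2 followed with -0.997 and the kinase gene Camk2b with -0.73. The highest were Cnih2 with 0.48, Slc1a3 with 0.38, Camk2a with 0.36 and Pick1 with 0.29, and the WT signal of Cnih2, 87.7, was under the floor.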

How the data were processed

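Gene expression was measured in brain and in mandible and maxilla of FoxO6-/- and WT mice, with 4 arrays and 1 per group. The deposited values are MAS5 signal intensities, which the authors computed per probe set and scaled to equal trimmed means, and whose MAS5 version the sources used here do not give. Of 45101 probe sets 64 are controls, 932 name several genes and 9160 are unnamed here. Platform annotation gave 18193 genes, and the 39 members were all matched by symbol to RefSeq (GRCm38.p6), used for names, gene order and promoter windows. Signals were taken to log2 with no pseudocount, and a gene entered a comparison when its mean over the compared arrays reached 101, the median signal without controls. Tissue and genotype were tested with limma 3.58.1 (R 4.3.3, lmFit and eBayes, Benjamini-Hochberg over all genes). The fit was tested on simulated data. Tables used Python 3.11.15, numpy 2.4.6, pandas 2.3.3 and scipy 1.17.1, and figures matplotlib 3.10.9. Precision is limited by the number of arrays, which have no replicates within a group. In the main fit the only residual of a gene is how far its tissue difference departs between the 2 genotypes. The p-values and SE rest on that and on a variance shared over 12569 genes, with 2.40 prior degrees of freedom beside 1 residual degree of freedom. Alternatives were normalization by quantiles or by centring on the median, leaving out the floor or setting it at the upper quartile of signals (524), the mean of each tissue at or above the floor, low signals raised to the floor, 50 added before log2, the mean of all probe sets, probe sets without the suffixes _s_at and _x_at, no genotype or no tissue term, a variance trend, and each array left out. Named were all members, the 4 highest and lowest partners per comparison, 7 partners chosen by role, and up to 2 genes of each marker list. Other markers were those of ganglion neurons, bone, oral epithelium, astrocytes and oligodendrocytes. The members and lists were chosen with earlier results of these data known.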

Additional observations from a re-analysis of the deposited data

Results flagged for a closer look

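Among the 6 receptor genes at or above the floor in both tissues, 3 had a higher signal in FoxO6-/- brain and a lower one in FoxO6-/- mandible and maxilla, and this opposite direction brought them here. Of all genes measured in a tissue, 57.3% were higher in FoxO6-/- brain and 48.7% in FoxO6-/- mandible and maxilla. The share of all genes with opposite directions was not counted. The log2 ratio in brain minus that in mandible and maxilla was 0.998 for Gabbr1 (0.16 and -0.84), 0.952 for Grm4 (0.35 and -0.60) and 0.929 for Gabra4 (0.31 and -0.62). A further Gabbr1 probe set was also opposite, with 0.25 and -0.46. A further Gabra4 probe set, under the floor in mandible and maxilla, was not, with 0.60 and 0.15. The brightest Gabra4 one had its FoxO6-/- mandible and maxilla signal under the floor, and Grm4 has 1 probe set. With 1 array per group the differences of these 3 genes were not tested, and marker lists of several tissues had opposite directions too. Of the pan-neuronal markers 12 of 12 were lower in FoxO6-/- mandible and maxilla and 15 of 15 higher in FoxO6-/- brain. For cartilage these counts were 5 of 5 and 5 of 5, for olfactory neurons 5 of 6 and 5 of 5, and for respiratory and glandular epithelium 6 of 6 and 4 of 5. Their part in the receptor values was not tested.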

How the results depend on the processing

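Against 18 receptor genes called higher in brain, a count of 19 to 21 was found under quantile normalization, median centring, no genotype term, 50 added, low signals raised to the floor, a variance trend and gene-specific probe sets, and of 16 to 20 when 1 array was left out with tissue as the only term. The count was 6 of 6 with a floor at the upper quartile, 5 of 6 with both tissues at or above the floor and 9 of 14 with the mean of all probe sets, where fewer genes were tested. With no floor it was 0 of 39, and 0 genes of the whole array and 0 synapse partners were called. With no floor and a variance trend, chosen after seeing the data, 21 of 39 were called. The single call higher in mandible and maxilla, Gabrp, was lost with the mean of all probe sets, no floor with or without a trend and a variance trend. With both tissues at or above the floor or the higher floor the count was 0 because Gabrp did not enter the fit. With 1 array left out the Gabrp difference ran from -1.58 to -0.84. Without the FoxO6-/- mandible and maxilla array the difference of Grm4 turned to -0.00010485, and it ranged up to 0.601 with other arrays left out. Calls for genotype over both tissues were 0 under every alternative run. In mandible and maxilla the median genotype ratio of the members was -0.43 with quantile normalization, -0.37 with 50 added, -0.30 with low signals raised to the floor, -0.0256 over 3 genes with the mean of all probe sets and -0.0241 over 39 genes with no floor, where 5 members were 2-fold higher and 6 lower. With the floor at the upper quartile 0 members were left there and no median could be given. In brain no floor gave 2 members 2-fold higher and 3 lower, and the mean of all probe sets gave 1 higher. The cause was not tested. All counts rest on 4 arrays, and signals under the floor scatter widely. The genotype term of the fit already pairs the tissues within a genotype, and without it 21 members were called higher in brain.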

Other observations

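Markers of other cell types were measured on the same arrays, with summed signals given for FoxO6-/- and WT in turn. Bone markers summed to 45742 and 41052 in mandible and maxilla and to 25719 and 27094 in brain. Markers of oral epithelium and skin summed to 88936 and 61798 in mandible and maxilla and to 21562 and 15634 in brain, and all 5 were higher in FoxO6-/- in both tissues. Astrocyte and radial glia markers without Gja1, the brightest, summed to 3307 and 6126 in mandible and maxilla and to 25630 and 20742 in brain, and 5 of 7 measured in mandible and maxilla were lower in FoxO6-/-, with a median log2 ratio of -0.65. Sums of oligodendrocyte lineage markers were carried by Pdgfra, and Olig1 had 28.3 and 259 in mandible and maxilla and 1586 and 1150.4 in brain. Markers of peripheral sensory and autonomic neurons, whose ganglia lie beside the jaw, summed to 1341 and 1412 in mandible and maxilla and to 3486 and 3115 in brain.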
